A study of Mus musculus with 12 samples.

Results

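The genes described here hold or let in calcium in skeletal muscle. They are the calsequestrin genes Casq1 and Casq2, the parvalbumin gene Pvalb, Hrc, Srl, Asph and the store-operated entry genes Stim1, Stim2 and Orai1. The 9 genes were taken by symbol from a table of 24528 genes, and all 9 passed the filter on low values that left 12224 genes for testing. Bulk gastrocnemius, a calf muscle, came from 6 KO mice and 6 WT mice, all male and 4 months old. KO mice had the genotype Ank2f/f; HSA-Cre+, in which floxed Ank2, the ankyrin-B gene, is deleted by a Cre that the series describes as selective for skeletal muscle. WT mice had the genotype Ank2f/f, so they carried the floxed alleles without the Cre. Cre alone was not a group, so an effect of Cre cannot be told apart from one of Ank2 loss. Other cells of the tissue are not targeted by this driver and contribute to every value, and in such bulk tissue fewer cells of a type and less RNA per cell cannot be told apart.

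Muscle contracts when calcium leaves the sarcoplasmic reticulum and relaxes when pumps return it. Inside the reticulum, calsequestrin and other acidic proteins hold the returned calcium near the release channels, while parvalbumin binds calcium in the cytosol of fast fibres and speeds relaxation. When the store runs low, STIM proteins in its membrane sense the loss and open ORAI channels in the cell membrane, a route called store-operated calcium entry.

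None of the 9 genes passed the test between genotypes (limma on the deposited log2 values, Benjamini-Hochberg adjusted over all 12224 genes, threshold 0.05). The same test called 6.19% of all tested genes, 3.12% as higher and 3.08% as lower in KO. At an unadjusted p of 0.05 or less there were 3 of the 9, with Pvalb higher and Stim1 and Srl lower in KO, while 26% of all tested genes met that limit, 11.9% as higher and 14.1% as lower. KO and WT libraries overlapped for every one of the 9 genes, and for all but 2.47% of the tested genes. Every difference given below is KO minus WT in log2 units of the deposited values. The 9 estimates were negative for 4 genes and positive for 5, with a median of 0.05 against -0.01 over all tested genes. Their absolute size had a median of 0.16, against 0.11 over all tested genes. A gene that missed the threshold is not shown to be unaltered, and the 95% interval of each difference is given below as the range of values the data leave.

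**Figure D1:**
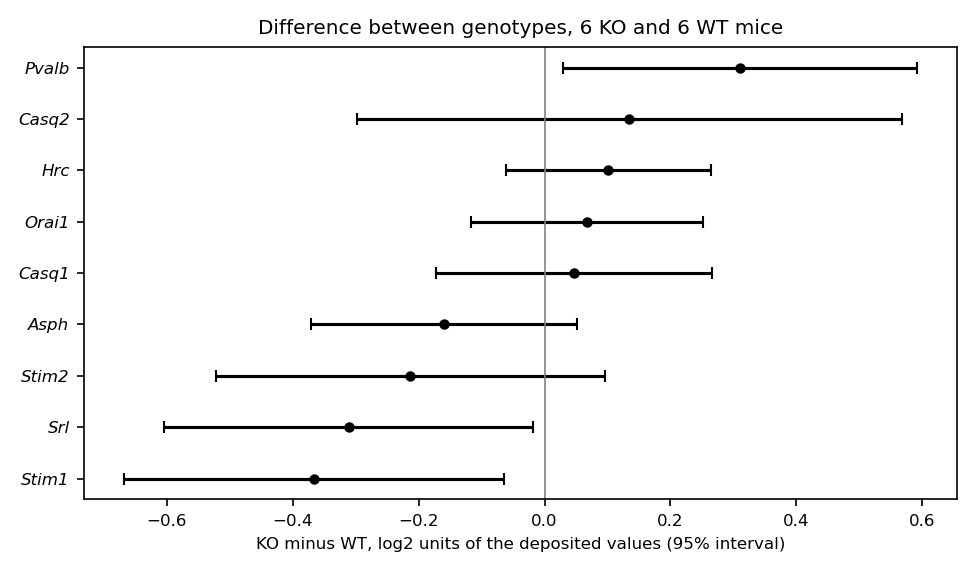
Difference between genotypes for each of the 9 genes, as KO minus WT in log2 units of the deposited values (horizontal axis), with points for the estimate and bars for its 95% interval from limma over 6 KO and 6 WT mice. The intervals of Pvalb, Srl and Stim1 lie on 1 side of 0 before adjustment, and the other 6 span it.

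The check of the deletion went with the labels. Ank2 lay between 7.54 and 8.03 log2 units in KO libraries and between 8.40 and 9.22 in WT libraries, with no overlap (difference -1.15, SE 0.14, limma adjusted p = 0.00088). It had 98 to 476 estimated reads a library, where the deposited scale compresses differences, so -1.15 does not measure the full size of the loss. Estimated depth was 13342686 to 18699931 reads in KO libraries and 12291448 to 16922092 in WT libraries (exact permutation p = 0.0823, two-sided, 0.165 after adjustment over the 4 values tested this way). Of the muscle fibre markers, 10 of 10 were measured and 0 passed the test. Their summed level was 1775330 to 1975050 scaled reads in KO and 1652250 to 2226170 in WT. Of the cardiomyocyte markers, Nppb, Myl7 and Bmp10 stood at the lowest value of the table in all 12 libraries, and the summed level of the list was 298 to 1031 scaled reads in KO and 765 to 1324 in WT. Of the 7 in this list, 3 were tested and 0 passed. The tested genes gave log2 differences, KO minus WT, of -0.69 for Myh6 (limma adjusted p = 0.0596), -1.08 for Sbk2 (0.0908) and 0.60 for Myl4 (0.17).

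Gene levels are compared with each other only as scaled estimated reads per kilobase (kb) of the principal annotated transcript. On that scale Pvalb was the highest, at 205443 ± 23093 in KO and 168222 ± 39552 in WT (SD, n = 6 each). It alone took 1.35% ± 0.18 of the estimated reads in KO and 1.08% ± 0.19 in WT. Casq1 came next with 29207 ± 841 per kb in KO and 28591 ± 4988 in WT. Srl had 6466 ± 1473 per kb in KO and 7901 ± 965 in WT, and Hrc had 6219 ± 208 in KO and 5804 ± 414 in WT. Their libraries overlapped in KO, so the order of these neighbours does not hold there beyond the spread, whereas every WT library of Srl lay above every WT library of Hrc. A gap followed, to 578 ± 125 per kb in KO and 747 ± 134 in WT for Stim1 and to 571 ± 46.4 in KO and 644 ± 104 in WT for Asph, whose libraries overlapped in both genotypes. Orai1 stood at 295 ± 33.9 per kb in KO and 279 ± 36.3 in WT, above Stim2 at 155 ± 42.5 in KO and 179 ± 28.8 in WT. Casq2 was the lowest, at 78.8 ± 32.6 per kb in KO and 66.7 ± 19.1 in WT, and it overlapped Stim2 in KO. The order of the 9 means was the same in KO and WT on this scale, but it depends on the length used. Per kb of merged exons, the level of Stim1 was 228 in KO and 294 in WT, that of Asph 237 in KO and 268 in WT, and that of Orai1 241 in KO and 228 in WT. With that length the KO order of these 3 genes was Orai1, Asph and Stim1, and Hrc stood above Srl in KO. The WT order was as before, but Srl and Hrc then stood close together in WT, at 5487 and 5453 per kb.

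**Figure D2:**
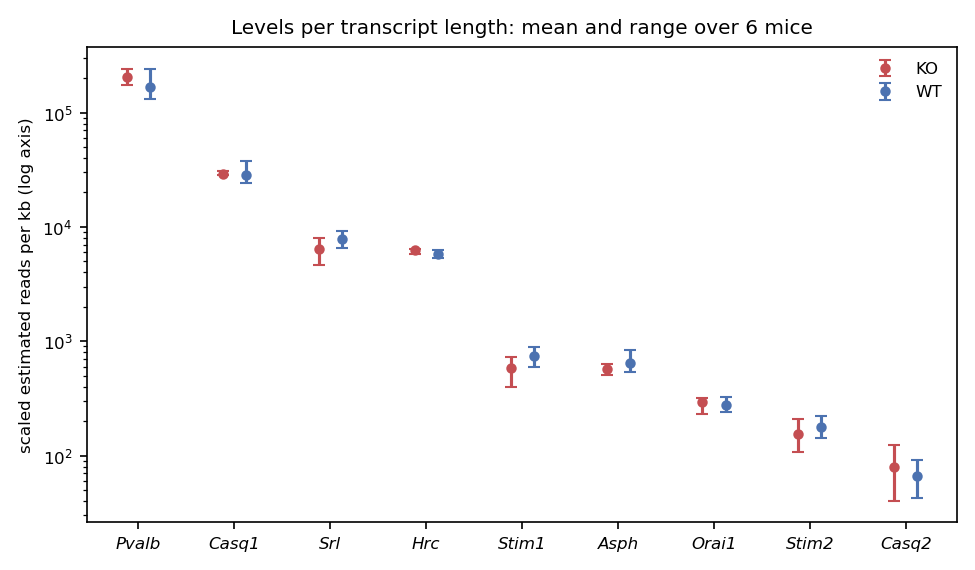
Scaled estimated reads per kb of transcript (vertical log axis) for the 9 genes, with the mean (point) and the range (bars) over 6 mice for KO (red, left) and WT (blue, right). The genes span from 205443 per kb for Pvalb to 78.8 per kb for Casq2 in KO, and the KO and WT ranges of each gene overlap.

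Among the proteins inside the reticulum, calsequestrin was measured as a fast-fibre form, Casq1, and a cardiac and slow-fibre form, Casq2. Casq1 lies on chromosome 1 from 172209894 to 172219868 on the minus strand (mm10). Casq2 lies on chromosome 3 from 102086415 to 102146514 on the plus strand. Per kb, Casq1 exceeded Casq2 by 371-fold in KO and by 429-fold in WT. Their promoter windows are shown because these paralogs stood so far apart in the same tissue, from 250 bases before to 50 bases after the annotated start (RefSeq, GRCm38.p6), 5′ to 3′ on the gene's strand, with capitals for matches to CANNTG, the E-box that myogenic factors bind.
Casq1 promoter, chr1:172219846-172220145, minus strand: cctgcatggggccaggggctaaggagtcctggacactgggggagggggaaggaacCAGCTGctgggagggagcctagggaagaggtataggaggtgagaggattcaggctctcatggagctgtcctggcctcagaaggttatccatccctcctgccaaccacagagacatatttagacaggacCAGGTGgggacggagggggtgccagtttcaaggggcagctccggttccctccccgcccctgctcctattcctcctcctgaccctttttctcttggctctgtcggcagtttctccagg
Casq2 promoter, chr3:102086165-102086464, plus strand: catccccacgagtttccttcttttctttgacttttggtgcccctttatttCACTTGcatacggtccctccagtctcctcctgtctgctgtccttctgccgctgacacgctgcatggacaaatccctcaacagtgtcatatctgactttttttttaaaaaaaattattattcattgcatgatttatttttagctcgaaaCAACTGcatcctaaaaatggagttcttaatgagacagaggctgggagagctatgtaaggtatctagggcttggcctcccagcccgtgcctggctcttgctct
Each window holds 2 such matches, a motif that reads the same on both strands and occurs in 72.3% of all 32851 windows of this length. The GC content was 60.3% for Casq1 and 44.7% for Casq2, against a median of 52.7% over all windows. A match of letters does not show that a factor binds there.

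Casq1 had a lowest, median and highest value of 15.67, 15.72 and 15.79 log2 units in KO and of 15.46, 15.61 and 16.08 in WT. The KO libraries all lay inside the WT range, above 4 of the WT libraries and below WT 2 and WT 4. The antisense gene Gm17224 covers 8.00% of the Casq1 exons, and the library kit does not mark strand. The difference was 0.05 (SE 0.10, 95% interval -0.17 to 0.27, limma adjusted p = 0.805). The SD was 0.04 in KO and 0.24 in WT. That ratio of 0.17 was as small in 0.18% of the tested genes, whose median ratio was 1.15. The highest WT library, WT 4, contributes to this spread, and the ratio is a description without a test. Hrc (0.47), Pvalb (0.51) and Asph (0.54) also had low ratios, which 4.56%, 6.14% and 7.04% of the tested genes did not exceed. In the other members the ratio ran from 0.96 for Orai1 to 1.90 for Srl.

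Casq2 ran from 7.54 through a median of 8.23 to 8.66 in KO and from 7.59 through 8.08 to 8.33 in WT. In KO, KO 2 and KO 5 lay at 7.60 and 7.54 and the other 4 between 8.14 and 8.66. In WT, WT 2 and WT 4 were the low ones. The difference was 0.13 (SE 0.20, 95% interval -0.30 to 0.57, limma adjusted p = 0.703). Only 95 to 342 estimated reads stood behind it per library, and the deposited scale compresses differences at such levels, so that log2 of scaled reads plus 1 gave 0.18 and limma-voom on the estimated reads 0.25. Leaving out 1 library moved the difference between 0.024 (without KO 3) and 0.25 (without KO 5). The ratio of Casq2 to Casq1 was -7.61 ± 0.46 log2 units in KO and -7.70 ± 0.51 in WT (SD, n = 6 each; exact permutation p = 0.745, two-sided, adjusted 0.745). Of 12 slow-fibre contractile genes, 11 had negative estimates, with a median of -1.58, and 0 passed the limma test. At an unadjusted p of 0.05 or less, where 14.1% of all tested genes were lower, so were 8 of these slow-fibre genes. Their summed level ran from 7167 to 37163 scaled reads in KO and from 19794 to 107318 in WT. Whether this difference in slow-fibre genes bears on Casq2 was not tested.

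Hrc encodes a histidine-rich protein that binds calcium and triadin in the reticulum and lies on chromosome 7 from 45335290 to 45338974. Its values were 13.79, 13.89 and 13.92 in KO and 13.65, 13.79 and 13.90 in WT (lowest, median and highest). KO 5 was low and lay within the WT range, and 5 of the 6 KO libraries were above the WT median. The difference was 0.10 (SE 0.08, 95% interval -0.06 to 0.26, limma adjusted p = 0.416). With quantile-normalized libraries it was 0.25 (adjusted p = 0.0697).

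Srl encodes sarcalumenin, a glycoprotein of the reticulum lumen that binds calcium and supports the calcium pump, and lies on chromosome 16 from 4480216 to 4541816. Its values were 14.08, 14.58 and 14.86 in KO and 14.56, 14.85 and 15.06 in WT (lowest, median and highest). KO 1, KO 3 and KO 6 lay below every WT library, while KO 2, KO 4 and KO 5 lay among the WT libraries. The difference was -0.31 (SE 0.14, 95% interval -0.60 to -0.02), with an unadjusted p of 0.0388 and a limma adjusted p = 0.171. The SD was 0.34 in KO and 0.18 in WT.

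Asph gives rise to aspartyl beta-hydroxylase, to junctin, which ties calsequestrin to the release channel, and to junctate, and the deposited value sums them. It lies on chromosome 4 from 9448069 to 9669344. Its values were 11.76, 11.95 and 12.07 in KO and 11.84, 12.08 and 12.47 in WT (lowest, median and highest). All 6 KO libraries lay below the WT median, with 5 of them inside the WT range and KO 3 below it. The difference was -0.16 (SE 0.10, 95% interval -0.37 to 0.05, limma adjusted p = 0.321), and it was -0.05 after a correction for the length trend described below, and -0.08 without WT 4. Exons of Clvs1 on the other strand cover 14.3% of the merged Asph exons. Clvs1 had a mean of 11.0 estimated reads per library, against 3156 to 5668 for Asph.

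**Figure D3:**
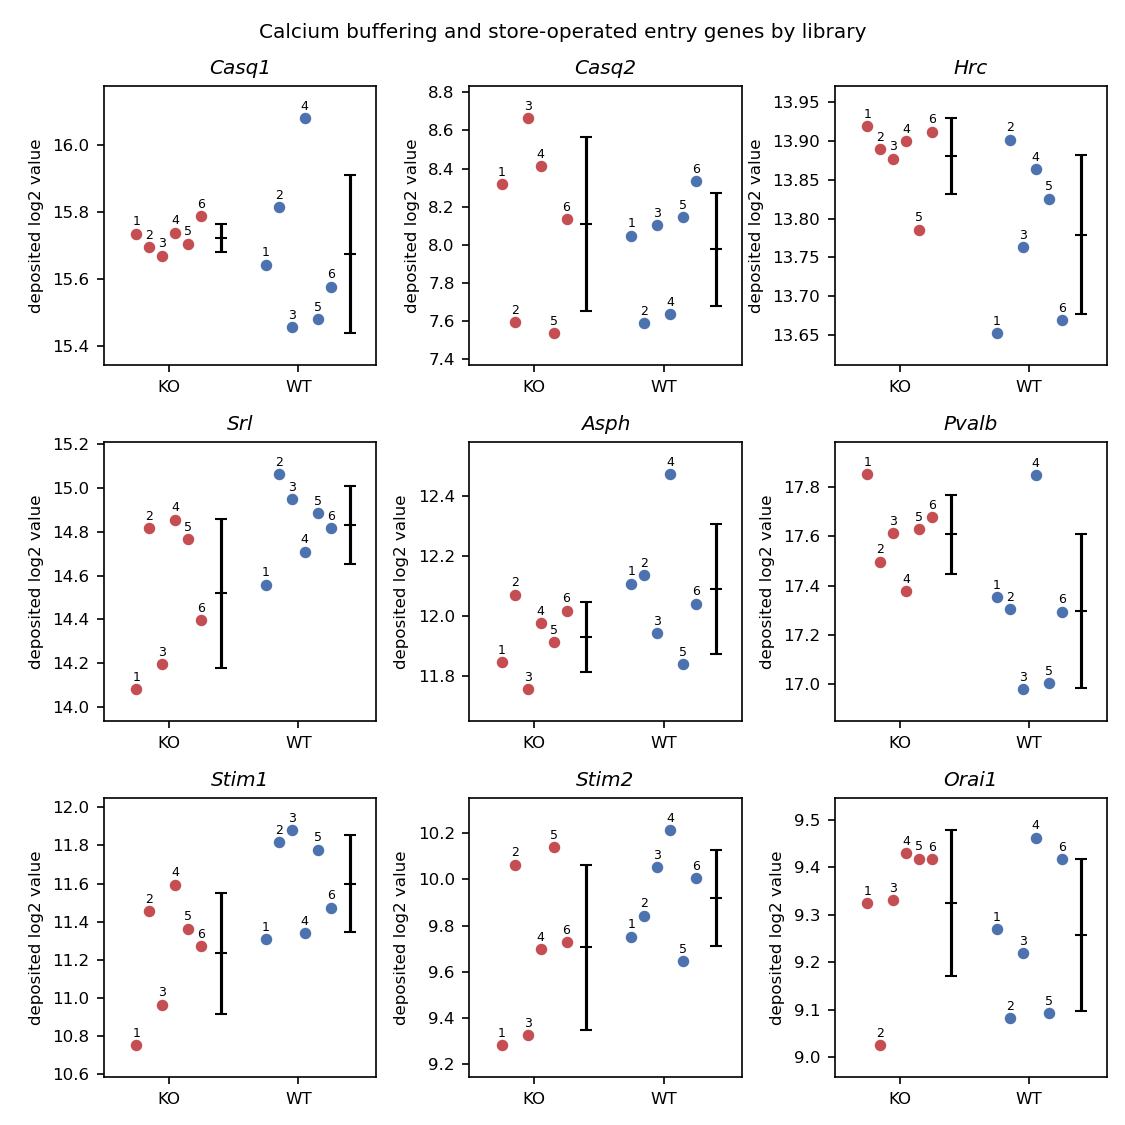
Deposited log2 values (vertical axes, scaled separately) of the 9 genes in the 6 KO libraries (red, left) and the 6 WT libraries (blue, right), numbered by replicate, with mean ± SD in black. Stim1 and Srl were lowest in KO 1 and KO 3, Casq1 had an SD of 0.04 in KO and 0.24 in WT, and WT 4 was the highest WT library in 5 of the 9 genes.

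In the cytosol, Pvalb encodes parvalbumin, an EF-hand protein of fast fibres. The gene lies on chromosome 15 from 78191114 to 78206400 on the minus strand and has a pair of RefSeq promoter windows, shown because Pvalb had the largest positive estimate of the 9 genes. Capitals again mark CANNTG.
Pvalb promoter, outer start, chr15:78206351-78206650, minus strand: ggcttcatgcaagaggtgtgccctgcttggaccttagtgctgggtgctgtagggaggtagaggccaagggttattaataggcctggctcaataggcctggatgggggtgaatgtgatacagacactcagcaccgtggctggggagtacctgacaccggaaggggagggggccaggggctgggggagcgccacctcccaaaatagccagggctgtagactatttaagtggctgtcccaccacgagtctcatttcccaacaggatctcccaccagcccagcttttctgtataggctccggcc
Pvalb promoter, inner start, chr15:78204188-78204487, minus strand: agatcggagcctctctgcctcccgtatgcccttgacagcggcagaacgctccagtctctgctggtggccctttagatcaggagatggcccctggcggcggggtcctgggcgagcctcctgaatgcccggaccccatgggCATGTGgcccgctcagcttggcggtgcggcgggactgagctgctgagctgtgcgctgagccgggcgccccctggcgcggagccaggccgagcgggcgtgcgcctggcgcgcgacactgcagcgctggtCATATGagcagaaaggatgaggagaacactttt
The outer window has 0 matches and the inner one has 2. The deposited values do not say which start was used.

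Pvalb ran from 17.38 through a median of 17.62 to 17.85 in KO and from 16.98 through 17.30 to 17.85 in WT. Every KO library lay above 5 of the 6 WT libraries, and WT 4 alone reached the top of the KO range. The difference was 0.31 (SE 0.13, 95% interval 0.03 to 0.59), which is 1.24-fold with an interval of 1.02 to 1.51, with an unadjusted p of 0.0326 and a limma adjusted p = 0.156. Without WT 4 it was 0.42 and passed the test (adjusted p = 0.0274), the only one of the 9 genes to pass when any 1 library was left out. After the correction for the length trend it was 0.19 (adjusted p = 0.253), and with quantile-normalized libraries 0.17 (adjusted p = 0.20).

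For store-operated entry, Stim1 encodes the main calcium sensor of the reticulum in muscle, which also occurs as a longer form. The gene lies on chromosome 7 from 102267806 to 102437319 on the plus strand. Its promoter window is shown because Stim1 had the smallest p of the 9 genes.
Stim1 promoter, chr7:102267569-102267868, plus strand: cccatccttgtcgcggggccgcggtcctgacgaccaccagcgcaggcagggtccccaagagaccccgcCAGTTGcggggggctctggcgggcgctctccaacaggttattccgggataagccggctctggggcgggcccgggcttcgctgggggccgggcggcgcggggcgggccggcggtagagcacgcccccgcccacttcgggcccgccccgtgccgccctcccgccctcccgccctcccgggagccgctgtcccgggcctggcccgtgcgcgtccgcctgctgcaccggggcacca
It holds 1 match to CANNTG and is 78.7% GC. For Srl and Asph no window was used here.

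Stim1 had a lowest, median and highest value of 10.75, 11.32 and 11.59 in KO and of 11.31, 11.63 and 11.88 in WT. All 6 KO libraries lay below the WT median, with KO 1, KO 3 and KO 6 below every WT library and WT 2, WT 3 and WT 5 above every KO library. The difference was -0.37 (SE 0.14, 95% interval -0.67 to -0.06), or 0.78-fold with an interval of 0.63 to 0.96. Its unadjusted p was 0.0202 and its limma adjusted p 0.123. No left-out library brought it past the threshold, the nearest being KO 4 (-0.44, adjusted p = 0.0632). After the correction for the length trend it was -0.29 (adjusted p = 0.14).

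Stim2 encodes a second sensor, which responds to smaller losses of stored calcium, and lies on chromosome 5 from 53998499 to 54121057. Its values were 9.28, 9.71 and 10.14 in KO and 9.65, 9.92 and 10.21 in WT (lowest, median and highest). KO 1 and KO 3 lay below every WT library, as for Stim1, and the other 4 within the WT range. The difference was -0.21 (SE 0.15, 95% interval -0.52 to 0.10, limma adjusted p = 0.365). It lay between -0.30 (without KO 5) and -0.13 (without KO 1) when 1 library was left out. The ratio of Stim2 to Stim1 was -1.53 ± 0.23 log2 units in KO and -1.68 ± 0.37 in WT (SD, n = 6 each; exact permutation p = 0.407, two-sided, adjusted 0.543). That difference of 0.15 lay between 0.064 (without WT 5) and 0.26 (without WT 4) when 1 library was left out. Per kb of principal transcript, Stim1 exceeded Stim2 by 3.73-fold in KO and by 4.17-fold in WT, and per kb of merged exons by 1.53-fold in KO and by 1.71-fold in WT.

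Orai1 encodes the channel pore that STIM proteins open, on chromosome 5 from 123015074 to 123030456. Its values were 9.03, 9.37 and 9.43 in KO and 9.08, 9.24 and 9.46 in WT (lowest, median and highest). Of the KO libraries, KO 2 lay below every WT library and the other 5 above the WT median. The difference was 0.07 (SE 0.09, 95% interval -0.12 to 0.25, limma adjusted p = 0.656). Without KO 2 it was 0.13 (adjusted p = 0.303).

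Pairs of the 9 genes were compared across libraries within each genotype. Of the 72 relations between members within a genotype, none passed after Benjamini-Hochberg adjustment, and the lowest adjusted exact permutation p was 0.10. Stim1 and Srl had the smallest p in KO and stayed close in WT. In KO, Pearson's r was 0.96 (exact permutation p = 0.0014, adjusted 0.10) and Spearman's rho was 1 (exact permutation p = 0.0028, adjusted 0.20), with r = 0.83 without the 2 libraries farthest from the Stim1 median. In WT, r was 0.90 (exact permutation p = 0.0083, adjusted 0.14) and rho was 0.94 (exact permutation p = 0.0167, adjusted 0.30), with r = 0.73 without the 2 farthest. Casq1, Pvalb and Asph were close to each other in WT. There r was 0.94 between Casq1 and Pvalb (exact permutation p = 0.0069, adjusted 0.14; rho 0.94, exact permutation p = 0.0167, adjusted 0.30; r = 0.98 without the 2 farthest libraries). Between Casq1 and Asph it was 0.96 (exact permutation p = 0.0028, adjusted 0.10; rho 0.94, exact permutation p = 0.0167, adjusted 0.30; r = 0.89 without the 2 farthest). The same pairs had r = 0.20 and r = 0.46 in KO (exact permutation p = 0.736 and 0.354, adjusted 0.898 and 0.640; rho 0.26 and 0.37). Whether these relations differ between KO and WT was not tested.

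The levels of Stim1 and Srl moved with a property of the whole library. For each library, the deviation of every tested gene from its mean over the 12 libraries was fitted against log10 of the merged exon length of its gene, and the slope is called the length trend. It was -0.09 ± 0.15 in KO and 0.09 ± 0.14 in WT (SD, n = 6 each; exact permutation p = 0.0519, two-sided, adjusted 0.165), so long genes read lower in several KO libraries. KO 1, KO 3 and KO 6 had the lowest slopes of all libraries, at -0.30, -0.20 and -0.17, and WT 2, WT 3 and WT 5 the highest, at 0.21, 0.22 and 0.23. These are the libraries in which Stim1 lay below every WT library and above every KO library. Of 18 relations of the 9 genes with this slope within a genotype, 2 passed after adjustment. In KO, r was 0.94 for Stim1 (exact permutation p = 0.0042, adjusted 0.0375; rho 0.94, exact permutation p = 0.0167, adjusted 0.15; r = 0.83 without the 2 libraries of most extreme slope). For Srl in KO, r was 0.97 (exact permutation p = 0.0042, adjusted 0.0375; rho 0.94, exact permutation p = 0.0167, adjusted 0.15; r = 0.97 without those 2). In WT, r was 0.97 for Stim1 (exact permutation p = 0.0181, adjusted 0.075; rho 0.77, exact permutation p = 0.103, adjusted 0.264; r = 0.97 without the 2 most extreme). For Srl in WT, r was 0.83 (exact permutation p = 0.0444, adjusted 0.114), and 0.68 without the 2 most extreme. Its rho there was 0.71 (exact permutation p = 0.136, adjusted 0.272). The sign of the relation went with the members' own lengths for Pvalb, but not for Asph in WT. Pvalb, with the shortest merged exons of the 9 genes, had r = -0.88 in KO (exact permutation p = 0.0208, adjusted 0.075; rho -0.71, exact permutation p = 0.136, adjusted 0.272; r = -0.51 without those 2) and r = -0.83 in WT (exact permutation p = 0.0111, adjusted 0.0667; rho -0.89, exact permutation p = 0.0333, adjusted 0.20; r = -0.59 without those 2). Asph, with the longest, was also negative in WT, with r = -0.74 (exact permutation p = 0.0556, adjusted 0.125; rho -0.83, exact permutation p = 0.0583, adjusted 0.263; r = -0.31 without those 2), and had r = 0.54 in KO (exact permutation p = 0.267, adjusted 0.436; rho 0.49, exact permutation p = 0.356, adjusted 0.492; r = 0.47 without those 2). Orai1 had r = -0.88 in WT (exact permutation p = 0.0389, adjusted 0.114; rho -0.77, exact permutation p = 0.103, adjusted 0.264; r = -0.92 without those 2) and -0.02 in KO (exact permutation p = 0.992, adjusted 0.992; rho 0.66, exact permutation p = 0.175, adjusted 0.286; r = -0.37 without those 2). The length correction took a smoothed curve (lowess) of deviation against log10 length from each library, not this straight slope. After it, the estimates were -0.29 for Stim1 (adjusted p = 0.14), -0.29 for Srl (adjusted p = 0.177) and 0.19 for Pvalb (adjusted p = 0.253, limma). The part of this trend in the differences was not tested beyond these values.

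**Figure D4:**
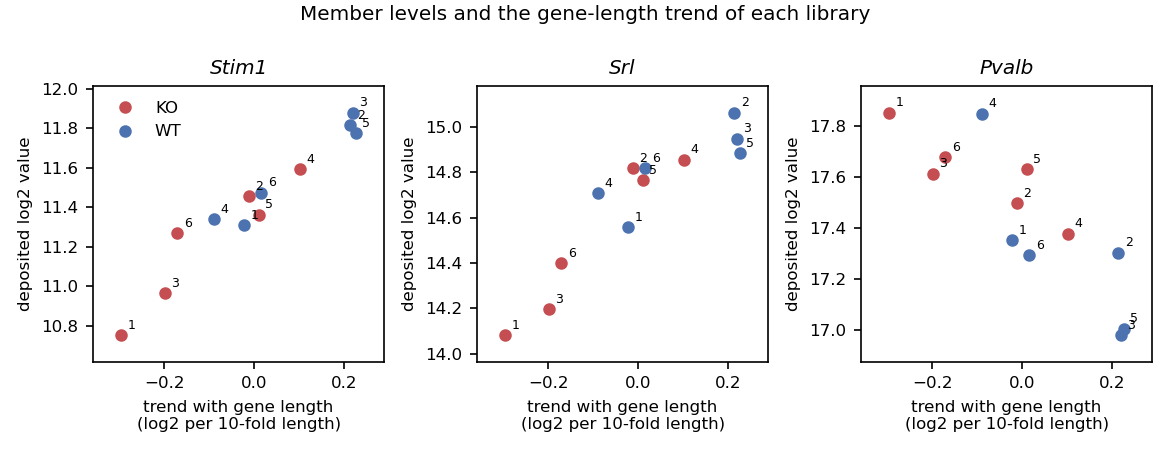
Deposited log2 value (vertical axes) against the length trend of each library (horizontal axes, log2 units per 10-fold gene length) for Stim1, Srl and Pvalb, with KO libraries in red and WT libraries in blue, numbered by replicate. KO 1, KO 3 and KO 6 have the lowest slopes, at -0.30, -0.20 and -0.17, and the lowest Stim1 and Srl values.

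Over all tested genes, likeness was measured as Pearson's r of deviations from the group means over the 12 libraries, and it is given without a test because the nearest of 12224 genes were picked. The genes nearest to Stim1 were the laminin gene Lamc1 (r = 0.98), the translation repressor gene Eif4ebp2 (0.98) and the receptor gene Igf2r (0.97). Srl was nearest to Ccdc85c (0.99), Ppp6r3 (0.98) and Kif13a (0.98). Both belonged to a wide pattern, since the top hundredth of all genes lay at or above 0.93 for Stim1 and 0.94 for Srl. Srl itself had r = 0.92 with Stim1, a value that 1.24% of the tested genes reached. Asph was nearest to Mpnd (0.99), Saraf (0.96), which encodes a brake on store-operated entry, and Chmp4b (0.94). The 99th percentile of likeness to Asph lay lower, at 0.79. Casq1 was nearest to Mllt3 (0.96), Gm19299 (0.93) and Hdgf (0.93). Pvalb was nearest to Atp6v1f (0.96), Nkiras1 (0.96) and Selenow (0.95). Casq2 was nearest to Adamtsl5 (0.93), Pfkfb2 (0.93) and Lmcd1 (0.93), and Stim2 to Atn1 (0.98), Tbx15 (0.97) and Smtnl2 (0.96). The likest genes were less close for Orai1, with 9130221H12Rik (0.91), Tbc1d7 (0.90) and Cited4 (0.88), and for Hrc, with Apeh (0.89), Dolk (0.85) and Irf2bp1 (0.85).

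The partners of store-operated entry gave no call either. Of 23 listed symbols, 16 were tested and 0 passed (limma adjusted p), with a median of -0.08. At an unadjusted p of 0.05 or less, 1 was higher and 5 were lower in KO. Over all tested genes, 11.9% were higher and 14.1% lower at that limit. The other channel genes gave 0.15 for Orai2 (adjusted p = 0.262) and -0.18 for Orai3 (adjusted p = 0.0811). Orai2 had only 8 to 33 estimated reads a library, where the deposited scale compresses differences, and Orai3 had 146 to 222. The scaffold gene Homer2 gave -0.84 (adjusted p = 0.0771) and passed without KO 4 and without WT 4. Its paralog Homer1 gave -0.33 (adjusted p = 0.143). Homer3 went the other way, at 0.19 (adjusted p = 0.111), and was the 1 higher gene of the unadjusted count. The channel kinase gene Trpm7 gave -0.28 (adjusted p = 0.0766) and passed without KO 2. Saraf gave 0.05 (adjusted p = 0.699).

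Among 14 other calcium binders of the reticulum and secretory pathway, 1 rose and 1 fell in KO, with a median of 0.02. The shares over all tested genes were 3.12% and 3.08%. Rcn2, which encodes the EF-hand protein reticulocalbin 2, rose by 0.30 (SE 0.06, limma adjusted p = 0.0153). It had 9.49 ± 0.09 log2 units in KO and 9.18 ± 0.06 in WT (SD, n = 6 each), with no overlap, and it passed under every alternative tried. Calu, the calumenin gene, fell by 0.30 (SE 0.09, limma adjusted p = 0.0492), also with no overlap. It lost that call without any 1 of KO 1, KO 3, KO 5, KO 6, WT 1, WT 2, WT 3, WT 5 and WT 6 (adjusted p up to 0.111), and in 8 alternatives with all libraries: limma-voom, either pseudocount on scaled reads, median-centring, quantile normalization, no filter, and the replicate block with and without length correction. The chaperones Calr, Canx, Hspa5 and Hsp90b1, which also hold calcium, did not pass. In the cytosol, 1 of 16 tested binders rose, with a median of 0.04. It was S100a4 (0.97, SE 0.25, limma adjusted p = 0.0436), an S100 protein gene that macrophages and fibroblasts also express, and it lost the call without any 1 library other than KO 2 (adjusted p up to 0.102), with limma-voom (0.0907) and after the length correction (0.072). That call was also lost with the replicate block and length correction together. S100a4 rests on 15 to 331 estimated reads a library, where the deposited scale compresses differences. For it, log2 of scaled reads plus 1 gave 1.83 and limma-voom 1.95.

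Genes that release, transport or take up calcium gave further calls. Over all tested genes, 3.12% rose and 3.08% fell. In the triad list, 1 of 19 genes rose and 3 fell, with a median of -0.19. At an unadjusted limma p of 0.05 or less, 2 of the 19 were higher and 8 lower in KO. Over all tested genes, 11.9% were higher and 14.1% lower at that limit. Ryr3, a ryanodine receptor gene expressed at low level in adult limb muscle, rose by 0.66 (SE 0.11, limma adjusted p = 0.00402), with 7.28 ± 0.20 in KO and 6.62 ± 0.21 in WT (SD, n = 6 each), no overlap, and a call under every alternative. It had 14 to 124 estimated reads a library, and its difference was 1.49 as log2 of scaled reads plus 1 and 1.53 with limma-voom. Itpr1 fell by 0.99 (adjusted p = 0.00853) and lost its call only with the replicate block and length correction together (adjusted p = 0.0601). Cacna2d1 fell by 0.66 (adjusted p = 0.0192) and lost it without KO 6 or WT 2 (up to 0.0532). Trdn, whose product triadin anchors calsequestrin, fell by 0.35 (adjusted p = 0.0358). For Itpr1, Cacna2d1 and Trdn, too, KO and WT libraries did not overlap. Over all tested genes, 2.47% had no overlap in either direction. The triad list had 2 calls in all without KO 6 or WT 2. In mitochondria, 1 of 12 genes rose, with a median of 0.01. Slc8b1, the mitochondrial sodium-calcium exchanger gene, rose by 0.61 (SE 0.12, limma adjusted p = 0.0133), with 8.17 ± 0.33 in KO and 7.56 ± 0.09 in WT (SD, n = 6 each), no overlap, and a call under every alternative. With limma-voom its difference was 0.94. Of 12 pumps and exchangers, Slc8a3 rose by 0.39 (adjusted p = 0.0349) and none fell, with a median of -0.23. At an unadjusted limma p of 0.05 or less, however, 7 of these 12 were lower and 2 higher in KO. Calls in either direction in this list numbered 6 without KO 2, 4 without KO 4 and 5 without WT 4. Trdn and Slc8a3 lost their calls without any 1 of KO 1, KO 3, KO 6, WT 1, WT 2, WT 3, WT 5 and WT 6 (up to 0.0972 and 0.0773). Trdn also lost its call after the length correction, with and without the replicate block, and with quantile normalization, where it was -0.24.

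Calcineurin, a phosphatase that calcium and calmodulin switch on, sends NFAT factors to the nucleus. While 3.08% of all tested genes fell, 4 of the 16 tested in this list fell and none rose, with a median of -0.21. They were Nfatc2 (-0.36, limma adjusted p = 0.0265), Nfatc3 (-0.42, adjusted p = 0.0324), Nfatc1 (-0.33, adjusted p = 0.0395) and the calcineurin regulator gene Rcan2 (-1.07, adjusted p = 0.0375). Nfatc3 had 9.30 ± 0.29 in KO and 9.72 ± 0.05 in WT (SD, n = 6 each), with no overlap. None of the 4 kept its call without KO 1, KO 3 or KO 6, the 3 libraries with the lowest length trend, nor without WT 5 or WT 6. The count was 0 without each of these 5 libraries and 1 without WT 1, WT 2 or WT 3. With 1 library left out, adjusted p reached 0.0658 for Nfatc2, 0.0756 for Nfatc3, 0.0891 for Nfatc1 and 0.0924 for Rcan2. With all libraries, Nfatc2 was not called after the length correction (adjusted p = 0.0719), and Rcan2 was not called with limma-voom (0.0527), the replicate block (0.103) or the block with length correction (0.111).

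**Figure D5:**
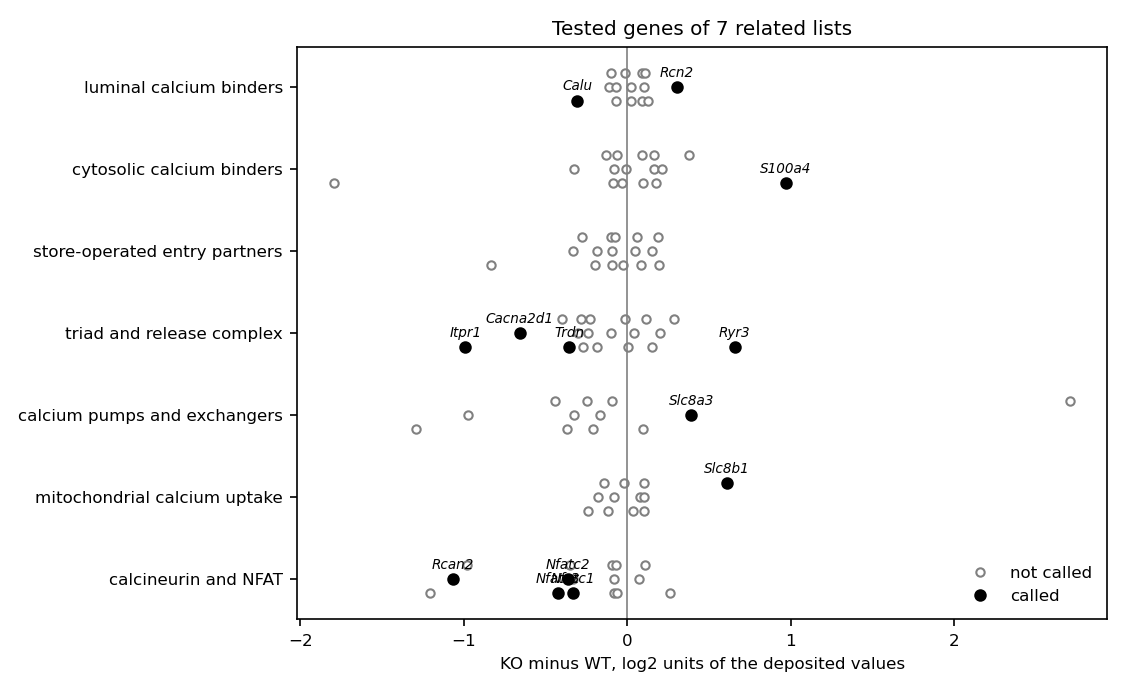
KO minus WT in log2 units (horizontal axis) for the tested genes of 7 related lists (rows, offset vertically for legibility), with filled points for genes that passed the test and open points for the others. The filled points include Rcn2 at 0.30, Slc8b1 at 0.61 and Ryr3 at 0.66 to the right of 0, and 4 genes of the calcineurin and NFAT list to the left.

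Fibre type and other cell types were read from marker lists, beside the 3.12% of all tested genes that rose and the 3.08% that fell. Of 14 fast-fibre contractile genes, none rose and 1 fell, Mylk2 (-0.59, limma adjusted p = 0.0244; not called without KO 3, KO 6, WT 2 or WT 3), with a median of -0.03. Without WT 4, the library with the highest Pvalb among WT, 3 of these genes were called. Smooth muscle and pericyte markers gave 1 fall among 10, Myh11 (-0.54, limma adjusted p = 0.0418), a median of -0.26 and list means of 9.56 to 9.82 in KO and 9.72 to 10.17 in WT. Their summed level, most of it from Des, which muscle fibres also express, was 69796 to 77434 scaled reads in KO and 63642 to 78040 in WT. Endothelial markers gave 1 fall among 10, Flt1 (-0.50, limma adjusted p = 0.0347), with a median of -0.22 and summed levels of 4022 to 6152 in KO and 4907 to 6442 in WT. Both calls were lost after the length correction and without any 1 of KO 1, KO 6, WT 1, WT 2, WT 3 and WT 5, that of Myh11 also without KO 3 or KO 5. Both were also lost with limma-voom (adjusted p = 0.0674 for Myh11 and 0.0556 for Flt1). Satellite cell markers gave 1 rise (Sdc4, 0.27, adjusted p = 0.033) and 1 fall (Cdh15, -0.37, adjusted p = 0.0342) among 6, and adipocyte markers 1 fall among 5 (Adipoq, -0.34, adjusted p = 0.0428). Sdc4 was not called without KO 1, KO 3, KO 6, WT 1, WT 2, WT 5 or WT 6, Cdh15 without KO 1, KO 3, KO 6, WT 1, WT 2 or WT 3, and Adipoq without KO 3, KO 4, KO 6, WT 1, WT 2, WT 3 or WT 5. Sdc4 also lost its call with the replicate block and length correction together. Adipoq had 3 to 21 estimated reads a library, and its difference was -1.39 as log2 of scaled reads plus 1 and -1.45 with limma-voom, where it was not called (adjusted p = 0.0546). Fibroblast, macrophage, Schwann cell and blood markers gave 0, and no lymphocyte marker passed the filter. Stim1, Stim2 and Orai1 are also expressed in these cells, and the part of these cells in the values was not tested.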

How the data were processed

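Poly-A RNA of 12 muscles, 1 mouse each, was sequenced. The authors deposited 1 table of log2-scale values per gene and library. Tools named in the submitters' processing notes are fastp, STAR and featureCounts, with mm10 as the build and no versions. How the values were transformed is not stated. Their lowest value, 5.57, is the same in each library, the shape of a variance-stabilizing transformation. Its closed form was inverted to scaled reads. The value most frequent among genes seen in 1 library was taken as 1 read. Of the values under 15 reads, 83.7% to 92.5% per library were within 0.1 of a whole number, so reads are estimates. They served the filter (at least 10 in at least 6 libraries), depth, levels per kb and some alternatives. Without molecular identifiers, reads are not independent molecules.

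Genotype was the only term of the limma fit (version 3.58.1 under R 4.3.3), made with variance trend and robust moderation. The 4 single values used exact two-sided permutation over 924 assignments, and correlations within a genotype over 720 orders. Genes were placed with GENCODE M21, also on mm10. The 9 genes were chosen by symbol with no threshold on their values, but they and the related lists were chosen with earlier results of these data known. Named are all 9 genes, Ank2, the called genes of each related list and the 3 genes most like a member. Orai2, Orai3, Homer1, Homer2, Homer3, Trpm7, Saraf, the chaperones and the cardiomyocyte markers Myh6, Sbk2 and Myl4 were added after their values were seen.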

Additional observations from a re-analysis of the deposited data

Results flagged for a closer look

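Within a genotype, 58 groups of 6 libraries were examined for a library far from the others, covering the 9 genes, Ank2 and the called genes of the lists, and 3 were found. Chance alone marks about 1 in 20 such groups. Orai1 in KO 2 stood at 9.03 log2 units, below the other KO libraries at 9.33 to 9.43. Hrc in KO 5 stood at 13.79, below the other KO libraries at 13.88 to 13.92. Nfatc2 in KO 4 stood at 8.60, above the other KO libraries at 8.24 to 8.35.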

How the results depend on the processing

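Across 23 alternatives, the estimates of Casq2, Pvalb, Stim1, Stim2, Orai1, Hrc, Srl and Asph kept their direction in all. Casq1 turned to -0.012 after the correction for gene length, with and without the replicate block; the cause was not tested. Of the 9 genes, 0 passed in the fits with all libraries, and 0 to 1 when 1 library was left out, the 1 being Pvalb without WT 4. Leaving out 1 library moved the estimate of Casq1 between 0.0034 and 0.13 and that of Orai1 between 0.032 and 0.13. Without 1 library the called genes of the whole table numbered 194 (without KO 6) to 1517 (without KO 2), against 757 with all, and the called genes of the lists numbered 1 to 2 (luminal binders), 0 to 2 (cytosolic binders), 0 to 1 (entry partners), 2 to 6 (triad), 0 to 6 (pumps and exchangers), 1 to 2 (mitochondrial), 0 to 6 (calcineurin and NFAT) and 0 to 3 (fast-fibre). Without a filter the luminal list had 1 call. Leaving out 1 library moved the difference of the Casq2 to Casq1 ratio between -0.061 and 0.20, that of the Stim2 to Stim1 ratio between 0.064 and 0.26, that of depth between 1482560 and 2554010 reads (exact permutation p = 0.0346 without KO 2 and 0.0281 without WT 4), and that of the length trend between -0.23 and -0.15 (exact permutation p = 0.0346 without KO 4, 0.0476 without KO 5, 0.0411 without WT 1 and 0.0346 without WT 4). Replicate numbers are shared between genotypes, but same-numbered libraries did not deviate together (correlations -0.36 to 0.29, 2 of 6 KO libraries nearest to their own number). The replicate block gave 818 called genes, none of them among the 9, with an adjusted p of 0.0891 for Stim1, 0.119 for Srl and 0.181 for Pvalb. Among the 9 genes depth limits Casq2 most, at 95 to 342 estimated reads a library, and among the called genes of the lists Adipoq (3 to 21), Ryr3 (14 to 124) and S100a4 (15 to 331) had fewer.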
